A study of Mus musculus with 2 samples.

Results

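The genes described here encode CTCF and the cohesin machinery, 10 mouse genes listed by name: Ctcf, the ring subunit genes Rad21, Smc3 and Stag1, the loader genes Nipbl and Mau2, the acetyltransferase gene Esco1, and the regulator genes Wapl, Pds5a and Pds5b. They were listed by name for their role, with some of their promoter values already known, and are 10 of 21755 protein-coding genes on chromosomes 1 to 19 and X. CTCF binding was measured by chromatin immunoprecipitation and sequencing (ChIP-seq) with a CTCF antibody, in midbrain tissue of newborn B6NCrl mice (age 0 days, sex not collected). There was 1 group of 2 replicates, no treatment and no altered allele. The labels number the replicates as biological replicates 1 and 2, but tie both to a single tissue and donor record. Their spread may therefore be technical only. No conditions could be compared, and every value below is a description set beside the same value over all genes or all peaks. Midbrain is a mixture of neurons, glia and vessels, and a peak does not show which of these cells bound CTCF.

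CTCF is a zinc finger protein that recognises a long, directional DNA sequence. Cohesin is a ring of Smc1, Smc3 and Rad21 with a Stag subunit; it is loaded on DNA by Nipbl and Mau2, extrudes loops, and is halted at CTCF sites, most often where the sites at both ends of a loop point towards each other. Wapl releases the ring, the Pds5 proteins act with Wapl and with the acetyltransferases, and Esco1 acetylates Smc3 and so protects the ring from release. The genes described here thus encode the proteins that bind the mapped sites or act at them, and the question is where CTCF sits at their own loci.

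A locus was the gene body with 20 kb added on each side. A peak of the optimal list (the longer of the 2 lists the authors thresholded by the irreproducible discovery rate, IDR, a measure of how well peak ranks repeat) counted where its summit lay in the locus. It was called promoter within 1 kb of any annotated start of the gene, body inside the gene otherwise, and flank outside it. Of the 68590 optimal peaks on chromosomes 1 to 19 and X, 45 lay in the 10 loci: 13 promoter, 12 body and 20 flank peaks. The authors' signal value of each peak has no stated scale, so it is also given as a percentile among all optimal peaks. Each replicate has its own list and its own scale, which runs lower than that of the optimal list.

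The promoter sequences below show the strongest promoter peak of the 7 genes with one whose best match could be printed, ordered by motif strength. They were read from mm10 (GRCm38), 5′ to 3′ on the strand given, and capitals mark the best match, 20 bases wide, to a CTCF weight matrix, which was trained on strong peaks of chromosomes not searched with it. The matrix, with a letter where a base held most of the weight, was NNNCCACNAGGGGGCGCNNN for even-numbered chromosomes and TNNCCACNAGGNGGCGCNNN for odd-numbered ones. A match at a per-position p of 1e-05 is called a motif; the last 3 sequences (Pds5a, Rad21, Nipbl) reach only 1e-04.
Stag1 promoter, chr9:100643565-100643594, plus strand: cagcgCGGCCAGCAGAGGGCGGTCGggacc
Pds5b promoter, chr5:150673675-150673724, plus strand: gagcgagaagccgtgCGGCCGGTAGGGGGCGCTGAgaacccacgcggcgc
Smc3 promoter, chr19:53599891-53599940, plus strand: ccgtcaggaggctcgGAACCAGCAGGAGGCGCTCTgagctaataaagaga
Ctcf promoter, chr8:105636741-105636790, plus strand: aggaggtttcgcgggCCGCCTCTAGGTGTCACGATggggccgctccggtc
Pds5a promoter, chr5:65696923-65696952, minus strand: ttttcTGACCGATAGAGGCCGGTAGaggac
Rad21 promoter, chr15:51991862-51991911, minus strand: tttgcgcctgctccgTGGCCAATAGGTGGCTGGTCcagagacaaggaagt
Nipbl promoter, chr15:8445440-8445489, plus strand: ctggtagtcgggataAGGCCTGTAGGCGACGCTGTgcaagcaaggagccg

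Next are the motifs of the 8 body peaks that hold one, shown because all of them run against their gene. Stag1, Pds5b and Smc3 lie on the plus strand of the chromosome and Nipbl on the minus strand.
Stag1 body, chr9:100917288-100917337, minus strand: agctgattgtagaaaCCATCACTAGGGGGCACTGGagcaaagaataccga
Stag1 body, chr9:100910525-100910574, minus strand: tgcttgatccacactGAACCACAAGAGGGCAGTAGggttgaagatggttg
Stag1 body, chr9:100760513-100760562, minus strand: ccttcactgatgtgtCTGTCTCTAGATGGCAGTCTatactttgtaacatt
Stag1 body, chr9:100898213-100898262, minus strand: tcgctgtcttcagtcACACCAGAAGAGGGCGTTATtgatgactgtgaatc
Nipbl body, chr15:8382374-8382423, plus strand: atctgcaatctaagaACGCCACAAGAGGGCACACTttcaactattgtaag
Pds5b body, chr5:150717992-150718041, minus strand: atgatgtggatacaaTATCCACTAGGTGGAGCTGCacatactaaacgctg
Pds5b body, chr5:150702871-150702920, minus strand: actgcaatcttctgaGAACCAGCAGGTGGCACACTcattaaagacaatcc
Smc3 body, chr19:53638232-53638281, minus strand: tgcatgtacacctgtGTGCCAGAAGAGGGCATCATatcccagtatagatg

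A further pair belongs to the strongest peaks of the Ctcf and Smc3 loci, with the closest fit to the matrix in each. Both lie outside Ctcf and Smc3 themselves, and the first lies inside the annotated gene Agrp.
Ctcf upstream, chr8:105622548-105622597, plus strand: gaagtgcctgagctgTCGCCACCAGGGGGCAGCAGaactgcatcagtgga
Smc3 downstream, chr19:53648891-53648940, plus strand: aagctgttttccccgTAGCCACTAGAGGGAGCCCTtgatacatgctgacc

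**Figure D1:**
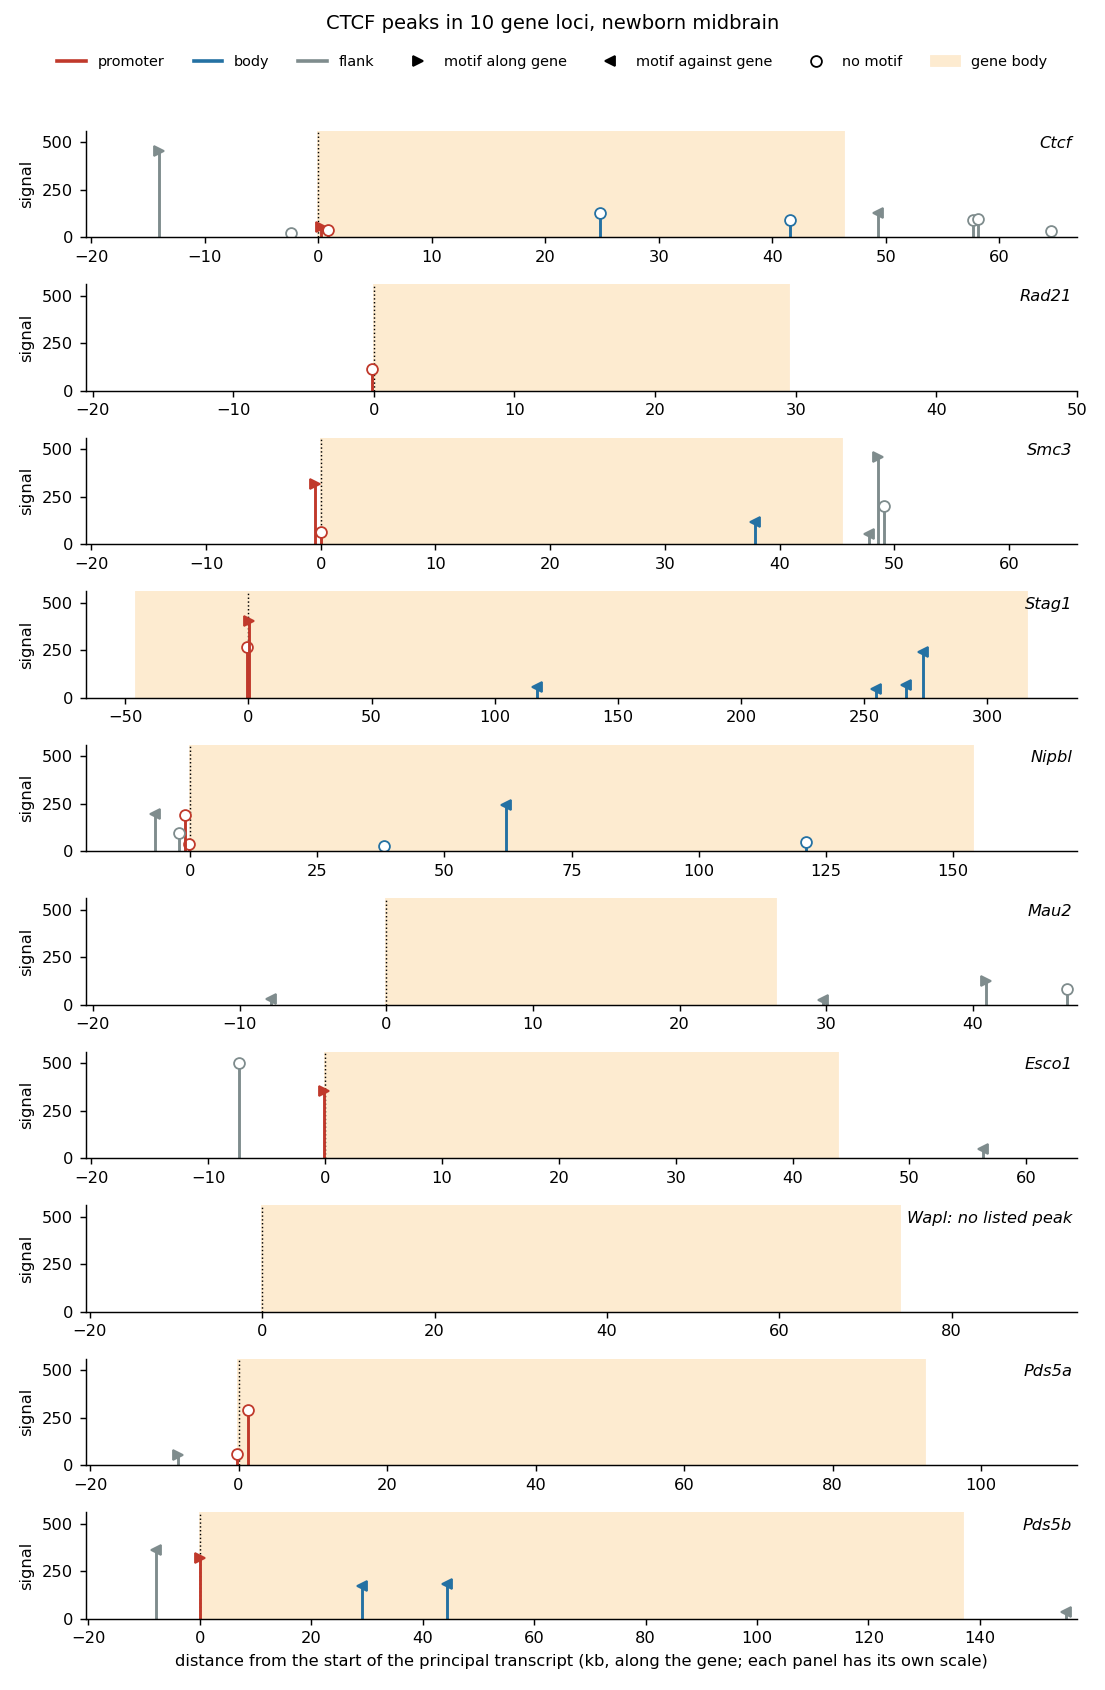
Position (distance in kb from the start of the principal transcript, along the gene) and signal value (optimal list) of each of the 45 peaks, in a panel for each of the 10 loci. Colours show promoter, body and flank peaks, triangles the direction of the CTCF motif and open circles peaks without a motif; Ctcf holds 10 peaks and Wapl none.

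A promoter peak was present at 8 of the 10 genes, and Mau2 and Wapl had none. Among all protein-coding genes the share was 43.4%. The same 8 genes had one with a narrower distance limit around any annotated start, and also within 5 kb of a start. With the outermost start alone the count was 7, without Stag1. The share over all coding genes did change with the limit, and was 61.3% within 5 kb. In RefSeq's promoter windows (GRCm38.p6), which are narrower and matched by symbol, 3 of the 7 genes with a window held a summit (Smc3, Pds5a and Pds5b), against 17.7% of the coding genes with one. Ctcf and Stag1 had a window with no summit in it, and Rad21, Nipbl and Esco1 were not matched. The genes here have more annotated starts (median 6 against 3 for all coding genes), and the part of this in the count was not tested. The list was proposed with the promoter values of several of these genes known, so the count is a description. The strongest promoter peak of each of the 8 genes had a signal between 55.2 and 404. In order they were Stag1 (404), Esco1 (354), Pds5b (321), Smc3 (316), Pds5a (291), Nipbl (188), Rad21 (112) and Ctcf (55.2). Against the coding genes with a promoter peak, whose median was 84.4, 7 lay above it. Nipbl is among the 7 by a peak 0.998 kb upstream, just inside the 1 kb limit, and its other promoter peak had a signal of 40.04. Stag1 stood at percentile 94.0 among those genes, Esco1 at 89.99 and Ctcf at 34.7.

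**Figure D2:**
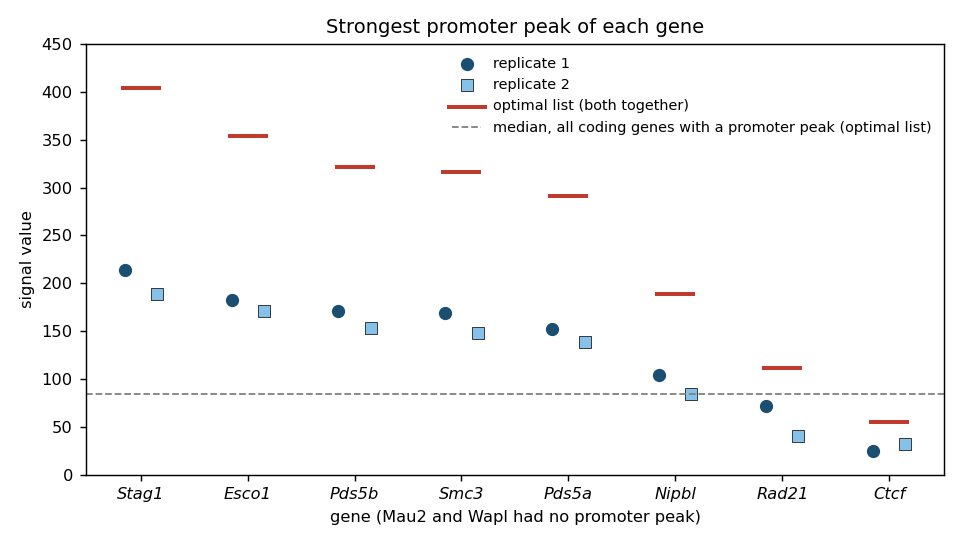
Signal value of the strongest promoter peak of each gene in replicate 1 (circles), replicate 2 (squares) and the optimal list (red dashes), with the median of all coding genes with such a peak as a dashed line. Replicate lists have a lower scale than the optimal list, and the order from Stag1 to Ctcf is the same in both replicates.

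Ctcf (chromosome 8, 105636568 to 105682922, plus strand) encodes CTCF itself. Its locus was the fullest, with 10 peaks: 2 promoter, 2 body and 6 flank. That is 11.6 peaks per 100 kb, percentile 89.0 among coding loci. Of the 10, 6 lay within 1 kb of an annotated start of another coding gene (Agrp, Carmil2, Acd or Pard6a), the promoter peaks among them. The promoter peaks were weak, at 55.2 (24.6 in replicate 1 and 32.2 in replicate 2) and 39.6 (28.9 and 10.8). The replicates differ for the weaker of these, which sits at percentile 35.1 in replicate 1 and 9.79 in replicate 2. The conservative list, the stricter of the IDR lists, has no summit at the same base. Agrp, which encodes a feeding neuropeptide, has an annotated start within 1 kb of both, so neither peak can be assigned to Ctcf alone. The strongest peak of the locus lay 14.0 kb upstream of the gene, with a signal of 451 (243 in replicate 1 and 208 in replicate 2, percentile 97.6), and holds the best motif match of all 45 peaks. Its summit lies inside the annotated gene Agrp. Within Ctcf, peaks of 129 in intron 2 and 87.3 in intron 10 held no motif. Downstream, starts of Carmil2, a regulator of actin capping, had peaks of 125, 90.4 and 95.5, and the start of Acd and Pard6a held a peak of 34.6.

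Rad21 (chromosome 15, 51962240 to 51991747, minus strand) encodes the kleisin that closes the cohesin ring. It had a single peak, 0.143 kb upstream of its start, with a signal of 112 (71.8 in replicate 1 and 40.6 in replicate 2). The replicates place it at percentiles 63.1 and 55.1. The next peaks lay 28.6 kb upstream (39.2) and 50.3 kb downstream (155), outside the locus. Its best match to the matrix reached 1e-04 only, with 10 of 13 consensus letters kept.

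Smc3 (chromosome 19, 53600398 to 53645833, plus strand) encodes an ATPase of the ring. Its 6 peaks were 2 promoter, 1 body and 3 flank peaks. The main promoter peak lay 0.491 kb upstream of the start with a signal of 316 (169 in replicate 1 and 148 in replicate 2), beside a weaker peak of 63.5 (45.0 and 20.7) at 33 bp past the start, in the 5′ UTR exon. Past the 3′ end, at 2.39, 3.10 and 3.68 kb from it, lay 3 peaks with signals of 55.8, 457 (236 and 225) and 199 (119 and 81.1). The middle of these, at percentile 97.9, was the strongest of the locus. Its motif runs along the gene, while those of the body peak in intron 21 (118) and of the first of the 3 run against it. The peak of 199 held no motif, even at 1e-04. A peak of 410 lay 21.3 kb upstream of the gene, just outside the locus.

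Stag1 (chromosome 9, 100597798 to 100959375, plus strand) encodes a subunit that binds the ring and DNA. At 362 kb it is the longest of the 10 genes, and it held 6 peaks, or 1.49 per 100 kb of locus (percentile 21.6 among coding loci). The conservative list held 8 peaks in this locus. Lists of each replicate's strongest peaks, as long as the optimal list, held 9 (replicate 1) and 6 (replicate 2). The promoter had 2 peaks, of 404 (214 in replicate 1 and 189 in replicate 2) in the 5′ UTR exon and 266 (158 and 109) at −554 bp. The first holds a motif at 1e-06 and the second none, even at 1e-04. Distances are from the start of the principal transcript, which lies inside the annotated gene, and the outermost start had no peak within 1 kb. The next peak lay 117 kb further along. The body peaks had signals of 57.9 (intron 5), 45.8 (intron 21), 67.1 and 242 (both in intron 22), and no flank peak was listed. A gap of 138 kb lay between the first and the second of these body peaks. It was the widest between neighbouring optimal peaks within the 8 loci that hold more than 1.

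Nipbl (chromosome 15, 8290617 to 8444463, minus strand) encodes the larger loader subunit. Of its 7 peaks, 4 lay upstream of the start: promoter peaks at 0.225 kb (40.04) and 0.998 kb (188; 104 in replicate 1 and 84.2 in replicate 2) upstream, and flank peaks at 2.12 kb (96.8) and 6.76 kb (194; 107 and 86.7). The promoter peak at 0.998 kb lies just inside the 1 kb limit and the peak at 2.12 kb is the nearest outside it. In the body, intron 1 held a peak of 241 (119 and 122), the strongest of the locus, and a weak peak of 28.9 (10.4 and 15.5). A peak of 45.8 lay in a coding exon, 121 kb from the start. The conservative list has no summit at the same base as the peak of 28.9, but it too holds 7 peaks in this locus.

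Mau2 (chromosome 8, 70016123 to 70042734, minus strand) encodes the partner of Nipbl in the loader. It had no promoter or body peak, and its 4 peaks were all in the flanks. They were 31.8 upstream, inside the splicing factor gene Sugp1, and 26.1, 127 (65.3 in replicate 1 and 60.5 in replicate 2) and 82.4 downstream, the last at the start of Gatad2a, which encodes a NuRD subunit. The last lay 19.8 kb from the gene, just inside the limit. The peak of 26.1 had the largest ratio between replicates of all 45, at 22.1 in replicate 1 and 4.23 in replicate 2 (percentiles 24.4 and 0.317). The conservative list has no summit at the same base, but it too holds 4 peaks in this locus. Of the 4 optimal summits, 3 lay in sequence masked as repeats in the reference genome. At the starts of Mau2 the longer lists held only weak peaks, at best 10.4 in the list called on both replicates, which ranks 149234 of 299921 there.

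Esco1 (chromosome 18, 10566507 to 10610352, minus strand) encodes the acetyltransferase that modifies Smc3 during interphase. Its promoter peak, 0.061 kb upstream of the start, had a signal of 354 (182 in replicate 1 and 171 in replicate 2), with a motif along the gene at 1e-06. The strongest peak of all 45 lay 7.399 kb upstream, at 502 (251 in each replicate, percentile 99.4), at the start of Snrpd1, which encodes a core protein of the spliceosome. It held no motif at 1e-05, and one at 1e-04. Another peak, of 50.01, lay downstream at the start of Greb1l.

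Wapl (chromosome 14, 34673928 to 34747983, plus strand) encodes the protein that opens the ring. No optimal peak lay in its 114 kb locus. That held for 17.0% of coding loci, but for 95 of the 3432 coding genes at least as long as Wapl (2.77%). The nearest peaks lay 52.7 kb upstream (99.1) and 21.2 kb downstream (388; 199.9 in replicate 1 and 187 in replicate 2), 148 kb apart, so a wider limit would bring in the second. The count of 0 thus depends on the limit of 20 kb, and it is also a statement about a list, not about absence of CTCF. The longer list called on both replicates held 8 peaks in the locus, the strongest at 20.7, and near the start 16.7 at −294 bp (rank 93211 of 299921). Near that start replicate 1 had 6.94 and replicate 2 had 9.63. The conservative list had none in the locus. Lists of each replicate's strongest peaks, as long as the optimal list, held none for replicate 2 and 1 for replicate 1 (15.6, downstream of the gene).

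Pds5a and Pds5b encode paralogues that act on the ring with Wapl. Pds5a (chromosome 5, 65605721 to 65698273, minus strand) had 3 peaks, with no listed peak in the rest of its 92.6 kb. The strongest, 291 (153 in replicate 1 and 138 in replicate 2), lay in intron 1 of the principal transcript and at −74 bp from the start of another transcript. The others were 60.8 (38.1 and 22.7) at 0.056 kb upstream of a start and 51.9 (35.9 and 15.9) at 8.11 kb upstream. Pds5b (chromosome 5, 150673739 to 150810690, plus strand) had 5 peaks, all of them with a motif. Its promoter peak, 0.018 kb upstream of the start, had 321 (171 and 153). Upstream, a peak of 361 (193 and 169) lay at the start of N4bp2l2, and introns 1 and 2 held peaks of 172 (95.2 and 76.0) and 184 (96.5 and 88.6). The weakest, 38.2, lay 18.5 kb downstream. The paralogues share a strong promoter peak and differ in the rest: Pds5b has 2 body peaks and Pds5a has none.

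**Figure D3:**
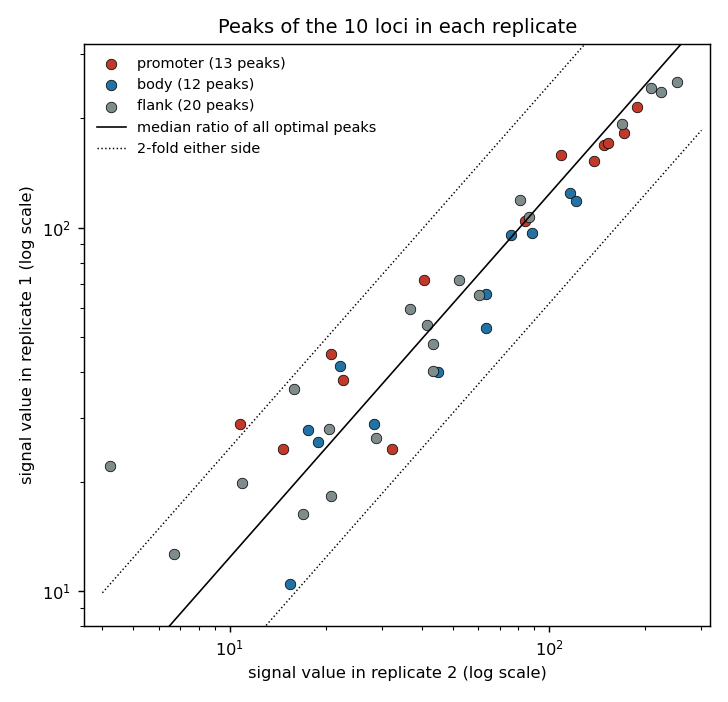
Signal value of the 45 peaks in replicate 1 against replicate 2, both on log axes, coloured by place, with the median ratio of all optimal peaks as a line and 2-fold either side as dotted lines. Of the 45 peaks 43 lie between the dotted lines, and the others are higher in replicate 1 (28.9 against 10.8 at Ctcf, 22.1 against 4.23 at Mau2).

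All 45 peaks were found in both replicates (a summit within 100 bp), against 97.8% of all optimal peaks. The log2 ratio of replicate 1 to replicate 2 had a median of 0.19 (SD 0.53) over the 45, and 0.30 (SD 0.46) over all. In the conservative list the medians were 0.30 for the loci and 0.31 for all, so the difference between them depends on the list. Of the 45, 43 lay within 2-fold of the median of all, where 94.8% of all optimal peaks lay. The largest difference between replicate percentiles was 25.3 points, and differences of over 30 were found in 0.978% of all optimal peaks. Across the 45 peaks, which share libraries, Spearman's rho of replicate signals was 0.943, against 0.948 over all peaks. In the conservative list 41 of the 45 were found, against 86.9% of all optimal peaks. The 4 without such a summit were 2 in the Ctcf locus, 1 at Nipbl and 1 at Mau2, with signals of at most 39.6. Conservative peaks with a shifted summit were not matched to them.

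The 10 loci together held 3.19 peaks per 100 kb, against 4.60 for all coding loci. The range was wide, from 0 at Wapl, 1.44 at Rad21 and 1.49 at Stag1 to 7.02 at Smc3 and 11.6 at Ctcf. The genes are long (median 60.2 kb, against 17.4 kb for coding genes), and the part of this in the density was not tested. In the gene bodies alone the density was 1.78, against 3.63 for all coding genes.

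**Figure D4:**
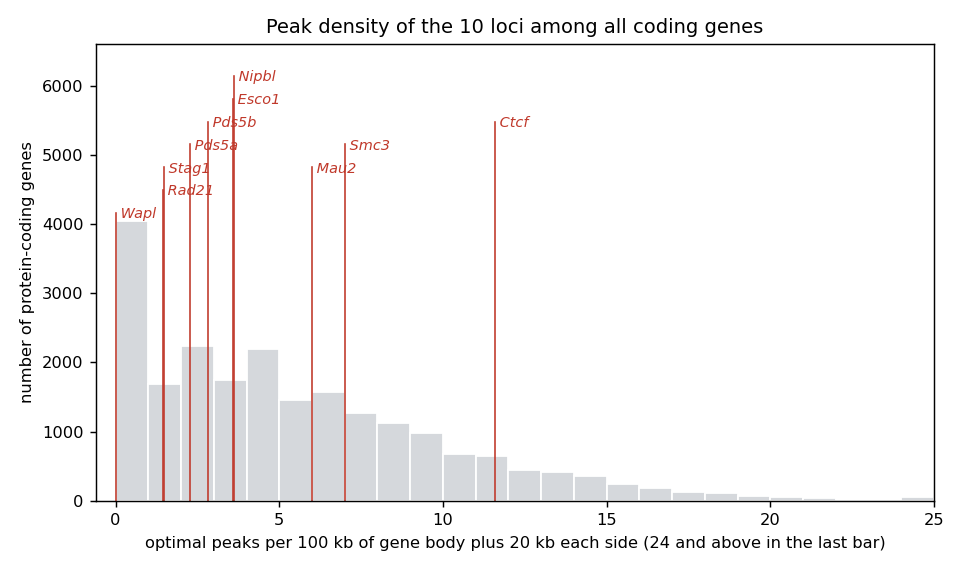
Number of protein-coding genes (y axis) at each peak density (x axis, optimal peaks per 100 kb of gene body plus 20 kb each side), with the 10 genes as red lines. Wapl is at 0, Ctcf at 11.6 and the other genes lie between 1.44 and 7.02.

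By place, promoter peaks had a median signal of 188 (13 peaks, percentile 72.3), body peaks 102 (12) and flank peaks 93.0 (20). Over all coding genes the medians were 64.5 for promoter, 71.9 for body and 93.8 for flank peaks. Some promoter values were known when the genes were listed, so signals of these peaks are a description only. A motif was found in 25 of the 45 peaks (55.6%, 95% Wilson interval 41.2 to 69.1, counting error only), beside 57.3% of all optimal peaks. Among the stronger 50% of the peaks the share was the same 55.6% in the loci (27 peaks) but 72.3% over all. Promoter peaks held it in 5 of 13, body peaks in 8 of 12 and flank peaks in 12 of 20. Over all coding genes the shares were 30.4%, 60.01% and 60.3%, likewise lowest at promoters. Of the 45 peaks, 23 lay within 1 kb of any annotated start, against 21.1% of all optimal peaks, but these loci were drawn around gene starts. A motif was in 34.8% of the 23 and in 77.3% of the other 22. Over all optimal peaks these shares were 35.1% and 63.2%. Peaks without a motif had a median signal of 88.8 here and 49.2 over all optimal peaks.

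The motifs pointed in a common direction at promoters and in the opposite direction in gene bodies. All 5 motifs of promoter peaks (Ctcf, Smc3, Stag1, Esco1, Pds5b) ran along their gene, and all 8 of body peaks (4 at Stag1, 2 at Pds5b, 1 each at Smc3 and Nipbl) ran against it. The Ctcf motif lies in a peak with a start of Agrp within 1 kb, which cannot be assigned to Ctcf alone. Over all coding genes, 54.2% of promoter motifs ran along the gene and 50.4% of body motifs against it. The pattern was chosen after its values were seen, it rests on 5 genes for promoters and 4 for bodies, and it has no test. At 1e-04 there were 9 of 10 promoter motifs along the gene (the exception is Nipbl) and 9 of 10 body motifs against it, beside 53.3% and 50.5% over all coding genes. At Stag1, Pds5b and Smc3, which have both kinds, the promoter motif and the body motifs thus face each other. Flank motifs ran along the gene in 4 of 12, against 51.8% over all coding genes, but in 3 of 3 at 1e-06, so they showed no steady direction. Of 17 neighbouring motif pairs within the loci, 5 were convergent, 3 divergent and 9 tandem, against 23.8%, 23.8% and 52.5% of all neighbouring pairs.

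**Figure D5:**
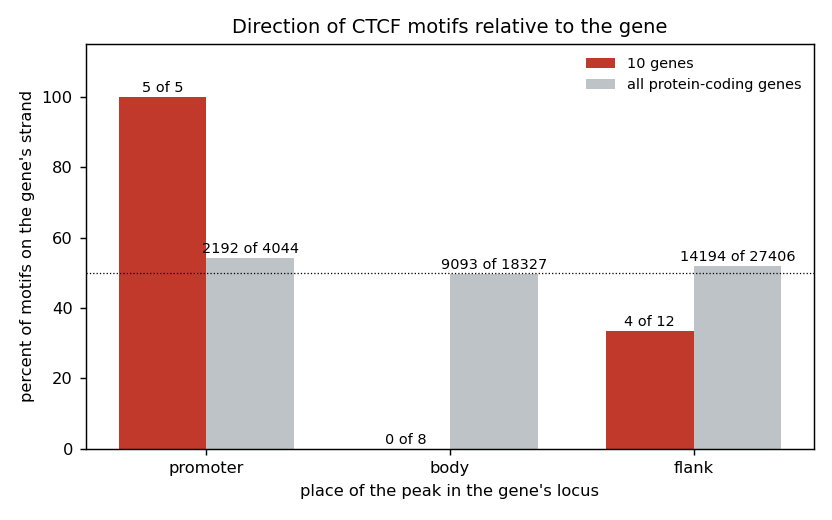
Percent of CTCF motifs on the gene's own strand at promoter, body and flank peaks, for the 10 genes (red) and all protein-coding genes (grey), with counts over the bars. The red bars read 5 of 5 for promoter, 0 of 8 for body and 4 of 12 for flank.

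Other genes of the pathway were taken from fixed lists, chosen with earlier results of these data known, so their counts are a description. Among 12 further cohesin subunits and regulators, 5 had a promoter peak (41.7%), beside 43.4% of all coding genes. They were Stag2 (228), Espl1, the separase gene (224), Sgo1, the shugoshin that guards centromeric cohesin (141), Smc1a (97.1) and Rec8, the meiotic kleisin (19.6). The other 7 had none: the meiotic subunit genes Smc1b, Rad21l and Stag3, and also Esco2, the acetyltransferase of S phase, Hdac8, Cdca5 and Pttg1. Of 8 genes for the CTCF paralogue and partners 6 had one (75%), led by Adnp (379), Chd8 (319), Maz (186) and Patz1 (148), and Ctcfl, the testis paralogue of CTCF, had none. Of 12 condensin and Smc5/6 genes 6 had one (50%), led by Ncapd3 (197), Smc6 (119), Nsmce1 (107) and Smc4 (86.1). Stag2 and Stag1, which encode alternative subunits of the ring, both had a promoter peak with a motif, at 228 and 404.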

How the data were processed

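CTCF ChIP-seq was measured in 2 replicates of newborn midbrain. The deposited files are narrowPeak lists on mm10, per the deposited notes: 1 for each replicate, 1 called on both together, and 2 thresholded by IDR. The sources used here name no peak caller, aligner or IDR threshold, and depth is unknown. The authors' signal value has no stated scale; their deposited −log10 q value is capped (96.0% of optimal peaks at the highest) and was not used. Of 68603 optimal peaks, 13 on scaffolds were left out. Gene models came from GENCODE vM21 and sequence from GRCm38.p6 (RefSeq), the build of mm10. Summits (column 2 plus column 10) were made 1-based. Replicate values came from the nearest summit within 100 bp. An optimal peak counted as found in the conservative list only where that list had a summit at the same base. A 20 bp matrix was learned by expectation maximisation (40 iterations, 2000 peaks, 50 bp either side of the summit) on odd chromosomes and X and used on even ones, and the reverse; matches were sought within 50 bp of the summit (1.08% of windows 1 kb away held one) and the code was tested on simulated data. Analyses used Python 3.11.15, numpy 2.4.6, pandas 2.3.3, scipy 1.17.1 and pysam 0.24.0. No tests were made, since members are not replicates. Members and lists were chosen with earlier results of these data known. All 10 genes are named, with the strongest promoter peak and strongest peak of each. Alternatives were other peak lists, limits, promoter widths, motif thresholds and leaving out each replicate. Sequences of chromosome 18 are not shown.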

Additional observations from a re-analysis of the deposited data

How the results depend on the processing

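Of 49 recomputed values, 37 stayed within the spread (SD over replicates for density and percentile, Wilson interval for shares, 1.5 times for counts, and SD over peaks for the log2 ratio) and 12 moved. Some spreads are wide: motif directions were judged by Wilson intervals from 5 promoter and 8 body motifs, with lower bounds of 56.6% and 67.6%. The density spread came from the 2 replicate densities, which were also among the values judged. The 37 is thus no measure of how firm the results are. The count of genes with a promoter peak was 7 or 8 in 7 alternatives, while the share over all coding genes ran from 23.1% (stronger 50% of peaks) to 61.3% (within 5 kb of a start). The log2 ratio of replicates was judged by a wide spread (0.53), and went from 0.19 to 0.30 in the conservative list. In the stronger 50% of peaks the loci held 27 peaks (1.91 per 100 kb, median percentile 46.1 within that list). With 50 kb added on each side they held 68, at a median percentile of 59.8, and with 10 kb the percentile was 61.4. The conservative list gave 54.0, with 47 peaks in the loci. Density was 1.78 per 100 kb in gene bodies alone and 3.33 to 3.69 with either replicate left out, where the percentile was 49.6 to 57.2. So the median percentile of the loci, 56.5 in the optimal list, lay on either side of 50 by setting, and leaving out replicate 2 (replicate 1's own strongest peaks) gave the 49.6. The motif share was 80% at 1e-04 (78.7% of all peaks) and 24.4% at 1e-06 (30.1%). In the stronger 50% it was 55.6%, where that of all peaks was 72.3%. Directions of promoter and body motifs, recomputed after the data were seen, stayed at 88.9% or above, with 8 of 9 body motifs against the gene when either replicate was left out. The cause of these movements was not tested. No paired analysis was possible because there is 1 group, and depth is unknown.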
